A study of Rattus norvegicus with 6 samples.

Results

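The Zfp genes are rodent genes whose symbol is Zfp followed by a number, a name given to proteins recognised by zinc finger sequences. On a rat expression array, 148 genes with such a symbol were found through the messenger RNA accessions of 154 probes, out of 13903 named genes. Of these, 139 were tested, because their brightest probe lay well above the local background on at least 3 of 6 arrays; over the whole array 11201 named genes passed the same filter. The family was selected on 1 member, Zfp644, which was known to stand much higher at 12 months, so the values of Zfp644 are given here as a description with no test. The other members were chosen by their symbol alone.

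The arrays compared islets from the pancreas of male Wistar rats at 3 months of age with those of males of the same strain at 12 months, 3 arrays for each age. No treatment or genetic change is named for either age. Islets were freed from the pancreas by collagenase digestion, and total RNA was labelled with Cy3 and hybridised, 1 sample to an array. The design speaks of 3 rats of each age, but the labels do not tie an array to an animal, so the p-values measure the spread between these arrays. Differences are given throughout as 12 months minus 3 months on the log2 scale of the quantile-normalised probe intensity, where 1 unit is a 2-fold change, and arrays are listed in the order of replicates 1, 2 and 3.

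Zinc finger proteins of the C2H2 type fold each finger around a zinc ion held by cysteine and histidine side chains, and an array of fingers reads a DNA sequence base by base. They form the largest class of sequence-specific transcription factors in mammals. Many carry a KRAB domain, which binds the corepressor TRIM28; TRIM28 in turn brings SETDB1 and HP1 proteins, which place and read methylation of lysine 9 of histone H3 (H3K9) over transposable elements and some genes. The symbol also covers proteins of other kinds, such as Zfp36 (tristetraprolin), whose CCCH fingers bind AU-rich messenger RNA and bring about its decay. In islets, Zfp57 is of note because loss of its human counterpart disturbs methylation at imprinted genes and causes transient neonatal diabetes.

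The sequences just before the start of the genes with the largest age differences are shown first, as the stretch of DNA from which each message is begun. RefSeq promoter windows on the GRCr8 build were matched by symbol for 113 of the 139 tested members. The windows of 4 members are printed, those with the largest positive differences among the called genes that had an entry (Zfp608 had none), each as the 250 bases before the start, 5′ to 3′ on the gene's own strand. Capitals mark the letters of 3 searched motifs on either strand: the GC box GGGCGG, the CCAAT box CCAAT and the NRF1 core GCATGCG, none of which contains another. The windows are chr4:57814210-57814459 on the minus strand for Zfp800, chr14:3249934-3250183 on the plus strand for Zfp644, chr8:27261650-27261899 on the minus strand for Zfp26 and chr10:35729786-35730035 on the minus strand for Zfp2.
Zfp800: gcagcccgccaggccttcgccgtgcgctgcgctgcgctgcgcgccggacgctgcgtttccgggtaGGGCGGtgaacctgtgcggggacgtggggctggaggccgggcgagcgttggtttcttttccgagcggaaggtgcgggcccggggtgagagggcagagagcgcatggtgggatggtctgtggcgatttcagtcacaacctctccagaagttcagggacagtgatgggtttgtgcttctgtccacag
Zfp644: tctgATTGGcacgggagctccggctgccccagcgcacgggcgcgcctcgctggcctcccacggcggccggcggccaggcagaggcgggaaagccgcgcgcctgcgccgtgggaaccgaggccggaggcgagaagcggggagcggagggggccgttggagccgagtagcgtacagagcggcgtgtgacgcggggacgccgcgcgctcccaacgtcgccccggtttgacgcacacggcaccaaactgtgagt
Zfp26: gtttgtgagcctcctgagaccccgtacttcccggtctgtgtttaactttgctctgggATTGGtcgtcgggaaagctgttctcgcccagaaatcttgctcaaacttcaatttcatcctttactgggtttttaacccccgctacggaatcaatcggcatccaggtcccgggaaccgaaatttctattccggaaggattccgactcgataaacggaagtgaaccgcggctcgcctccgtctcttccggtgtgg
Zfp2: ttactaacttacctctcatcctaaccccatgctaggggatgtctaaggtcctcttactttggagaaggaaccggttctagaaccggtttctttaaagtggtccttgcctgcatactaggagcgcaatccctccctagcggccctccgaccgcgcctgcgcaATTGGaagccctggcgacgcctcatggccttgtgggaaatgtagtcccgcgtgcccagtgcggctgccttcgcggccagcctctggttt

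The GC content of these windows was 74.4% for Zfp644, 66.4% for Zfp800, 57.2% for Zfp2 and 52.4% for Zfp26. The median was 57.2% over the 113 members and 52.0% over 27456 RefSeq promoters. These 27456 were not limited to genes tested on the arrays, as the members were. The contrasts with all promoters are therefore not particular to Zfp genes as against other tested genes. The members held a median of 13 CG pairs in 250 bases, against 6 over all promoters, and Zfp644 held 38. The GC box was found in 44.2% of members and 32.4% of all promoters, the CCAAT box in 38.1% and 34.3%, and the NRF1 core in 7.96% and 3.14%. Letters of the TATA box TATAAA were found in 8.85% of members and 13.1% of all promoters. Of the windows printed above, those of Zfp644, Zfp26 and Zfp2 held a CCAAT box, and that of Zfp800 held a GC box. These shares describe letters in a window and carry no test. The median age difference was 0.30 in the 50 members with a GC box and 0.07 in the 63 without, and −0.53 in the 9 members with an NRF1 core against 0.13 in the other 104. It was 0.25 in the 43 members with a CCAAT box and 0.08 in the 70 without. With the TATA letters it was 0.08 in 10 members, against 0.10 in 103 without. The 57 members of higher GC content had 0.22 and the other 56 had 0.07. None of these medians was tested or set beside the same motif over all tested genes.

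In 12-month islets, 8 of the 139 Zfp genes were higher at an adjusted p under 0.05 and 0 were lower. Of these, Zfp644 is the gene on which the family was picked and Zfp800 passed the filter only through its 12-month arrays, so both are descriptions. The other 6, Zfp26, Zfp608, Zfp2, Zfp280d, Zfp52 and Zfp207, had differences from 1.12 to 2.57. The call rule was limma's moderated test with Benjamini-Hochberg adjustment over all 17941 probes tested. The members' share, 5.76%, lay below the background of 7.86% of all tested genes. By direction, 4.87% of all tested genes were called higher and 2.98% lower, so that the absence of a lower call among members is set against a background of 2.98%. At an unadjusted p under 0.05, 38 members passed, 26 higher and 12 lower, which is 27.3% against 30.6% of all tested genes (1524 higher and 1901 lower). Without Zfp644 and Zfp800, 6 of 137 members were called, or 4.38%. Since the arrays of each age shared a scan that held no array of the other age, a scan effect and an age effect cannot be told apart here.

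Zfp800, a C2H2 protein, had the largest difference of the family. Its level was 7.19, 8.16 and 7.41 on the 12-month arrays and 2.10, 2.09 and 2.86 on the 3-month arrays. The groups were far apart, but on all 3-month arrays the probe was not well above background, and its fold can only be bounded from below. On the reported scale, Zfp800 was at least 23.7-fold higher at 12 months. This bound was taken against the higher of its own signal and the lowest signal well above background on each 3-month array. Across the alternatives its log2 difference ran from 1.87 to 5.58, so the bound does not hold beyond the reported scale. Zfp800 passed the filter only through its 12-month arrays, and therefore could not have been tested without standing higher there, so no p is given for it.

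Zfp644 encodes a C2H2 protein that works with the H3K9 methyltransferases G9a and GLP, the products of Ehmt2 and Ehmt1. Its level was 8.56, 8.84 and 8.33 at 12 months and 4.34, 4.79 and 4.18 at 3 months. Every 12-month array stood more than 3 log2 units above every 3-month array, and all 6 arrays were above background. The mean difference of 4.14 was a 17.7-fold change, and it is the value on which the family was chosen. With normexp background correction, which adds the same offset to every spot, it was 2.30.

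Zfp26, another C2H2 gene, was at 7.78, 8.33 and 7.54 at 12 months and at 4.33, 5.90 and 5.71 at 3 months. The first 3-month array stood well below the other two, but the ages did not overlap. The difference was 2.57 ± 0.47 (SE, n = 3 per age), with a limma adjusted p of 0.0266. Without the first 3-month array it was 2.08 and no longer passed (limma, adjusted p = 0.0505).

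Zfp608, whose mouse counterpart represses the Rag recombinase genes in thymocytes, was at 7.16, 7.78 and 7.09 at 12 months and at 5.42, 5.42 and 5.06 at 3 months. The 3-month arrays lay close together and all 12-month arrays were above them. The difference of 2.04 ± 0.28 (SE, n = 3 per age) passed with a limma adjusted p of 0.0129. It was lost when the first 12-month array was left out (limma, adjusted p = 0.0570) and kept in each of the other 5 omissions of 1 array.

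Zfp2 was at 7.81, 8.51 and 8.43 at 12 months and at 5.99, 6.63 and 6.39 at 3 months, a difference of 1.92 ± 0.30 (SE, n = 3 per age; limma adjusted p = 0.0193). Zfp280d was at 10.22, 10.29 and 10.45 at 12 months and at 8.50, 8.96 and 8.34 at 3 months, a difference of 1.72 ± 0.26 (SE, n = 3 per age; limma adjusted p = 0.0162). In both genes the lowest 12-month array was clearly above the highest 3-month array.

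Zfp52, a KRAB zinc finger gene, was at 10.51, 10.91 and 10.49 at 12 months and at 9.002, 9.40 and 9.50 at 3 months. The difference was 1.33 ± 0.26 (SE, n = 3 per age; limma adjusted p = 0.0312). Zfp207 encodes BuGZ, a spindle protein that binds the checkpoint protein BUB3 and loads it onto kinetochores. It was the brightest of the called members, at 13.26, 13.11 and 13.12 at 12 months and 11.99, 12.11 and 12.03 at 3 months. Its arrays were the tightest of the group, with an SD of 0.08 at 12 months and 0.06 at 3 months, and the difference was 1.12 ± 0.21 (SE, n = 3 per age; limma adjusted p = 0.0286).

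**Figure D1:**
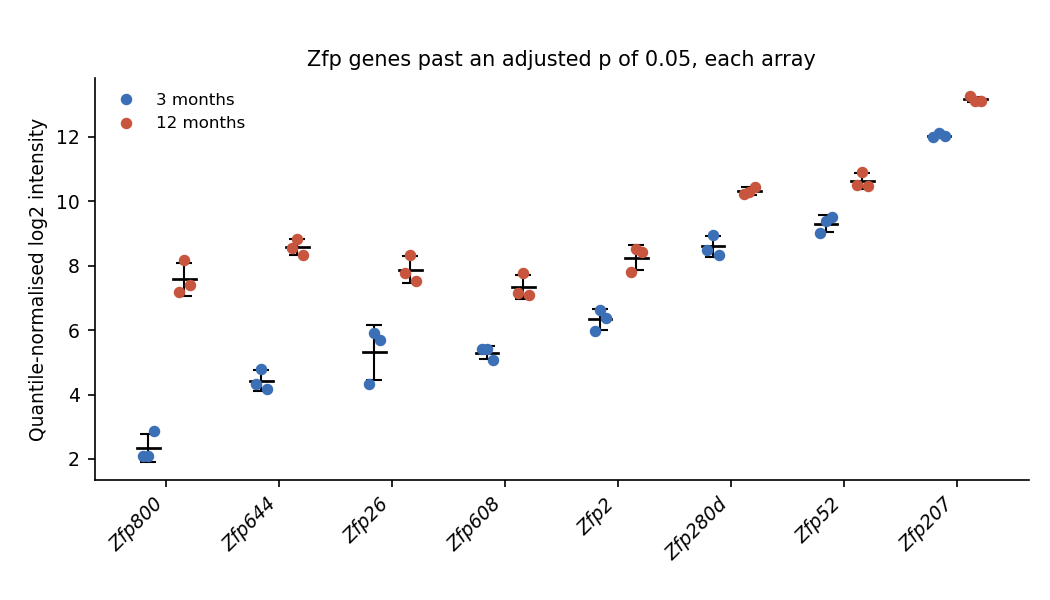
Quantile-normalised log2 intensity (vertical axis) of the 8 Zfp genes past an adjusted p of 0.05, ordered by difference. Points are single arrays, blue for 3 months and red for 12 months, black lines are means and bars are SD (n = 3 per age). The ages do not overlap in any of the 8 genes, nor in 39.4% of all tested genes. Genes picked by a small p tend to separate, so this adds no support. Zfp800 lies near 2 log2 units at 3 months, where its probe was not above background.

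These calls differed in how far they rested on single arrays. When each of the 6 arrays was left out in turn, Zfp608 passed in 5 of 6 fits. Zfp280d, Zfp26 and Zfp2 passed in 2 of 6, and Zfp52 and Zfp207 in 1 of 6. Leaving Zfp644 and Zfp800 aside, the count of called members ranged from 0, without the first 12-month array, to 7, without the second array of either age, and was 1 without replicate 3 of 12 months or without replicate 1 or 3 of 3 months. The share of all tested genes called moved as well. It was 1.08%, 10.2% and 1.35% without 12-month replicates 1, 2 and 3, so these swings are not particular to the members. The differences of Zfp26, Zfp608, Zfp2, Zfp280d, Zfp52 and Zfp207 stayed above 0 in every alternative that was run. Alternatives that changed only the variances could not move them. Since the ages did not overlap in these genes, leaving out arrays or blocking by replicate could not turn their sign either. The constant sign in those fits is therefore no added evidence. Normexp more than halved the value of Zfp608, to 1.00, and brought Zfp26 to 1.37.

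**Figure D2:**
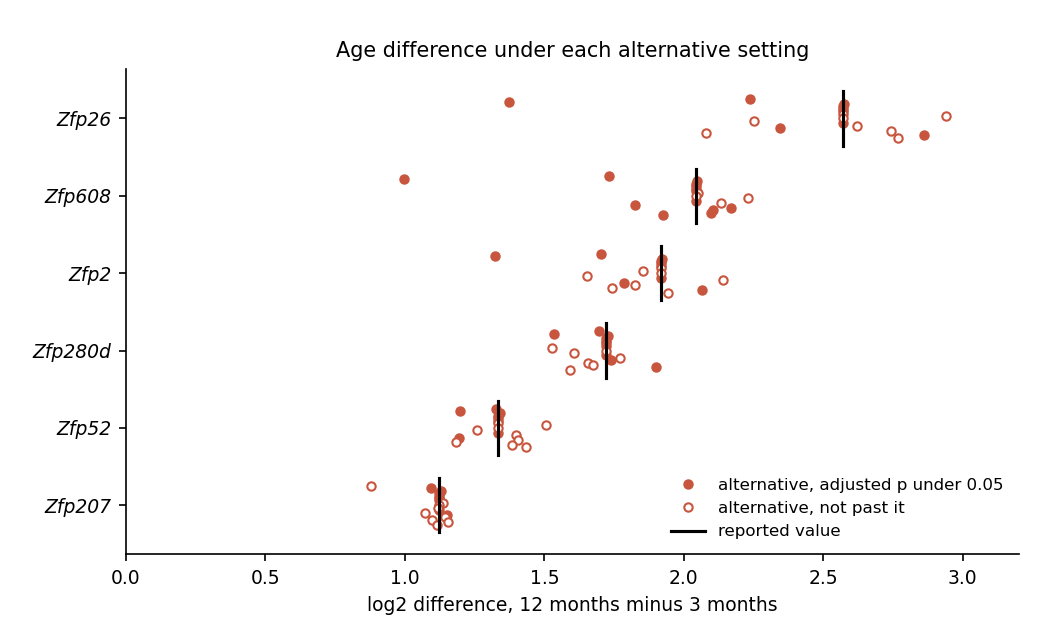
Log2 difference, 12 months minus 3 months (horizontal axis), of Zfp26, Zfp608, Zfp2, Zfp280d, Zfp52 and Zfp207 in 17 alternative analyses. Black bars are the reported values, filled points alternatives with an adjusted p under 0.05 and open points those at or above 0.05. All points lie above 0, which omissions and blocks could not change, since the ages do not overlap in these genes. The points furthest to the left for Zfp26, Zfp608 and Zfp2 are the normexp values.

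The remaining 131 tested members did not pass, with differences from −1.17 to 1.56. Of these, 16 had an adjusted p between 0.05 and 0.1, 11 of them higher and 5 lower at 12 months. With the 8 above, 24 members lay under 0.1, or 17.3%, against 20.3% of all tested genes. The cut-offs the study applied to its gene lists were more than a 2-fold change and an unadjusted p under 0.05. With limma's p in place of the study's paired test, 20 members passed, 17 higher and 3 lower. That is 14.4% of the members against 19.5% of all tested genes. With the test named in the methods, 17 members passed, 15 higher and 2 lower, as did 14.2% of all tested genes. The limma split moved to 13 higher and 9 lower when the arrays were aligned on their 75th percentile. The 3 genes lower by limma's p were named after their values were seen. They were Zfp428 (−1.01 ± 0.32), Zfp689 (−1.03 ± 0.31) and Zfp563 (−1.11 ± 0.44; SE, n = 3 per age), with limma adjusted p of 0.0915, 0.0823 and 0.140. In 57 members the ages did not overlap, 35 higher and 22 lower at 12 months. That is 41.0% of the members, against 39.4% of all tested genes, and a share this near the background is no result about the family. For a single gene, an exact permutation test over 20 arrangements of the arrays reaches a two-sided p of 0.1 at the lowest.

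Over the whole family the median difference was 0.09, against −0.13 over all tested genes, and 58.3% of members against 43.5% of all genes had a value above 0. Aligning the arrays on their 75th percentile moved the median of all genes to −0.34, and that of the members to −0.02 with 66 of 139 above 0, so the sign of the family's median depended on the scaling. Relative to the median of all genes, the members lay 0.22 higher in the reported fit and between 0.15 and 0.32 higher in 18 alternatives. In the reported fit, 90 of 139 members lay above the median of all genes. The median level of the members on each array was 9.42, 9.59 and 9.42 at 12 months and 9.11, 9.25 and 9.21 at 3 months, with all 12-month arrays above all 3-month arrays. These medians cover only members that passed the filter on dim probes, and no test was made of them.

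Most differences were small. Of the members, 81.3% lay within 1 log2 unit of 0 and 52.5% within 0.5, against 75.4% and 45.3% of all tested genes. Beyond 1 log2 unit, 20 members were higher and 6 lower at 12 months. The median SD between arrays of 1 age was 0.32 at 3 months and 0.29 at 12 months over the members, against 0.38 and 0.33 over all tested genes.

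**Figure D3:**
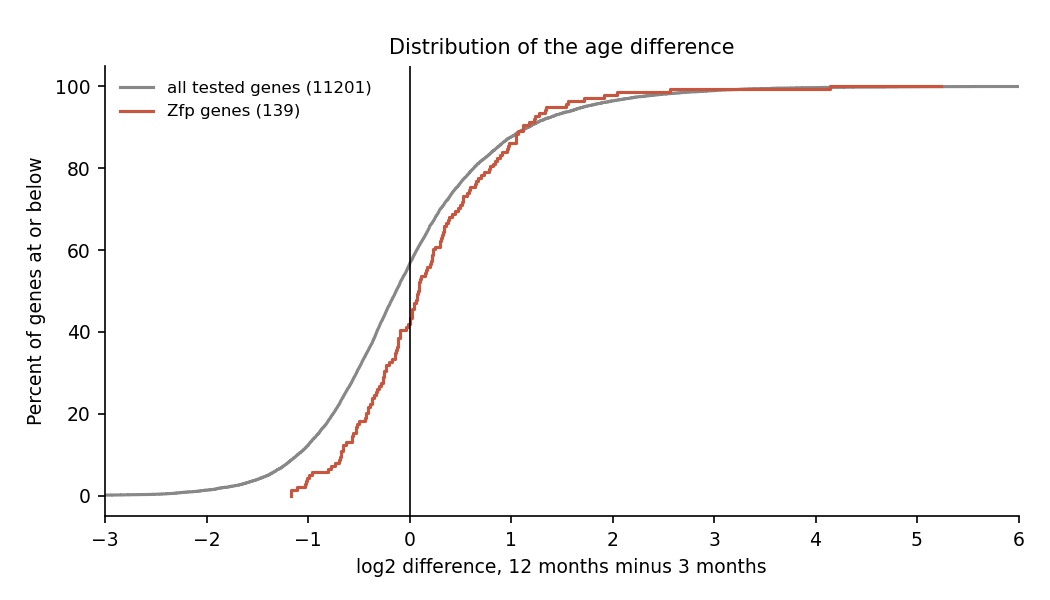
Cumulative percent of genes (vertical axis) at or below each log2 difference, 12 months minus 3 months (horizontal axis), for 139 Zfp genes (red) and all 11201 tested genes (grey). At 0 the red line lies below the grey line, since 58.3% of Zfp genes and 43.5% of all genes are above 0, and no Zfp gene falls below −1.17.

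Divided by mean level, the dimmest 46 members had a median difference of 0.27 with 5 called. The middle 46 had 0.12 with 2 called, and the brightest 47 had 0.00 with 1 called, Zfp207. The 5 dim calls were Zfp26, Zfp608, Zfp2, Zfp644 and Zfp800, of which the last 2 are descriptions. All tested genes within the same ranges of level had medians of −0.13, −0.11 and −0.11. Their calls made up 8.75%, 10.4% and 5.44%, against 10.9%, 4.35% and 2.13% of the members. The 10.9% counts Zfp644 and Zfp800, so it gives no contrast with the 8.75%. The median signal of the negative control spots was 89.5 to 91 on the 12-month arrays and 29.5 to 31 on the 3-month arrays, and 61.2% ± 2.62 and 75.6% ± 2.29 of probes (SD, n = 3 per age) exceeded the local background clearly at 12 and 3 months. The part of this background in the differences of dim members was not tested. Among the 129 members above background on all 6 arrays, the median difference was 0.10 and 7 were called, or 5.43% against 7.62% of all genes above background on all 6. A fit on such probes alone called 10 of the 129, against 11.9% of all genes in it.

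**Figure D4:**
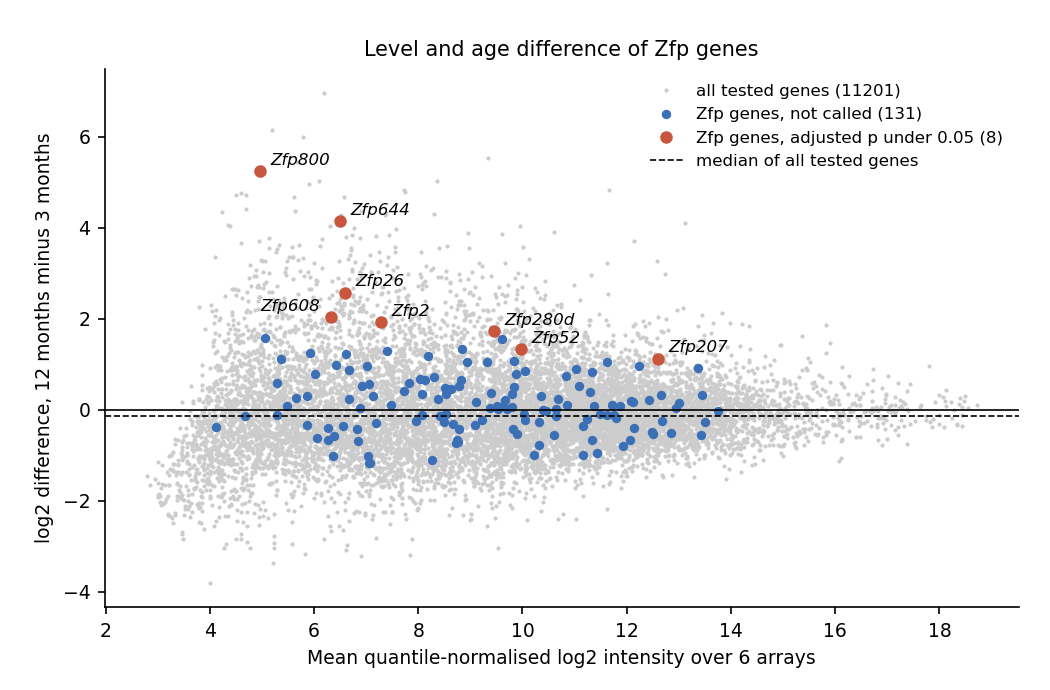
Log2 difference, 12 months minus 3 months (vertical axis), against the mean log2 intensity over 6 arrays (horizontal axis) for all 11201 tested genes (grey), 131 Zfp genes that were not called (blue) and 8 that were (red, named). The solid line is 0 and the dashed line the median of all tested genes, −0.13. Of the red points, 5 belong to the dimmest 46 members, Zfp644 and Zfp800 among them.

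At the edge of the filter, 3 members were above background on exactly 3 arrays. Zfp800 was so on the 12-month arrays only, whereas Zfp475 (difference −0.14) and Zfp217 (−0.39) were so on the 3-month arrays only. Of the 9 members that were not tested, Zfp329, Zfp474 and Zfp709l1 were above background on 2 arrays, all of 3 months, and Zfp382, Zfp46, Zfp507, Zfp541, Zfp775 and Zfp949 on 1 or none. The mean level of these 9 lay between 2.11 and 4.65 in either age. Zfp384 and Zfp385a were each measured by 3 probes and Zfp458 and Zfp68 by 2, and within each gene the probes gave differences of the same sign and 0 calls.

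The brightest members were Zfp386, Zfp385a, Zfp148, Zfp575 and Zfp36, with mean levels of 13.75, 13.50, 13.44, 13.42 and 13.37; levels of different probes are listed only to rank the signals. None of them was called. Zfp386 was at 13.75, 13.88 and 13.59 at 12 months and at 13.66, 13.65 and 13.97 at 3 months, with a difference of −0.02 ± 0.23 (SE, n = 3 per age). Zfp575 differed by −0.56 ± 0.32 (SE, n = 3 per age). The ages overlapped in both.

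Of the 14 listed genes for RNA binding, mRNA decay and ribosomes, 8 were tested and 0 were called at the adjusted threshold, and 2 passed an unadjusted p under 0.05, which 30.6% of all tested genes did. Zfp36, the mRNA decay factor tristetraprolin, was at 14.43, 13.39 and 13.63 at 12 months and at 13.02, 13.10 and 12.62 at 3 months. The difference was 0.91 ± 0.34 (SE, n = 3 per age; limma adjusted p = 0.122), and the first 12-month array stood above the others of its age. Its relative Zfp36l2 was at 12.92, 12.73 and 12.50 against 11.76, 12.12 and 11.40, a difference of 0.96 ± 0.28 (SE, n = 3 per age; limma adjusted p = 0.0742). The ages did not overlap in either gene. Here and in the groups below, such separation is set against 39.4% of all tested genes, and calls against 7.86%. Zfp36l1, also of this subfamily, had a wide spread at 3 months, at 7.65, 8.15 and 9.67, and overlapped the 12-month values of 9.77, 8.83 and 8.80.

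Zfp598 encodes the ubiquitin ligase that marks collided ribosomes, and differed by 0.20 ± 0.27 (SE, n = 3 per age). Zfp622, a factor in the maturation of the large ribosomal subunit, was at 11.90, 11.90 and 12.00 at 12 months and at 12.27, 12.25 and 12.50 at 3 months. All 12-month arrays were below all 3-month arrays, but the difference of −0.41 ± 0.22 (SE, n = 3 per age) did not pass (limma, adjusted p = 0.231). The Zfp385 genes encode proteins with RNA-binding fingers, of which Zfp385a is a p53 target and partner. Zfp385a, Zfp385b and Zfp385d differed by −0.26, −0.33 and −0.37, with overlapping ages.

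Among the 5 tested factors that bind promoters or chromatin loops, 0 were called, and Zfp143 and Zfp281 stood highest. Zfp143 activates small nuclear RNA and many messenger RNA promoters and sits at loop anchors. It was at 9.37, 9.73 and 9.42 at 12 months and at 7.66, 8.77 and 8.05 at 3 months, and the ages did not overlap. The difference of 1.34 ± 0.33 (SE, n = 3 per age) missed the threshold (limma, adjusted p = 0.0550). Zfp281, a regulator of pluripotent cells, was at 10.35, 10.41 and 10.33 at 12 months, with an SD of 0.04, and at 8.84, 9.67 and 9.39 at 3 months. The difference was 1.07 ± 0.28 (SE, n = 3 per age; limma adjusted p = 0.0619). Its relative Zfp148, which binds similar GC-rich sites, differed by 0.33 ± 0.22 (SE, n = 3 per age). Zfp219 and Zfp410, which activates the remodeller gene Chd4, differed by −0.26 and −0.43, with overlapping ages.

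**Figure D5:**
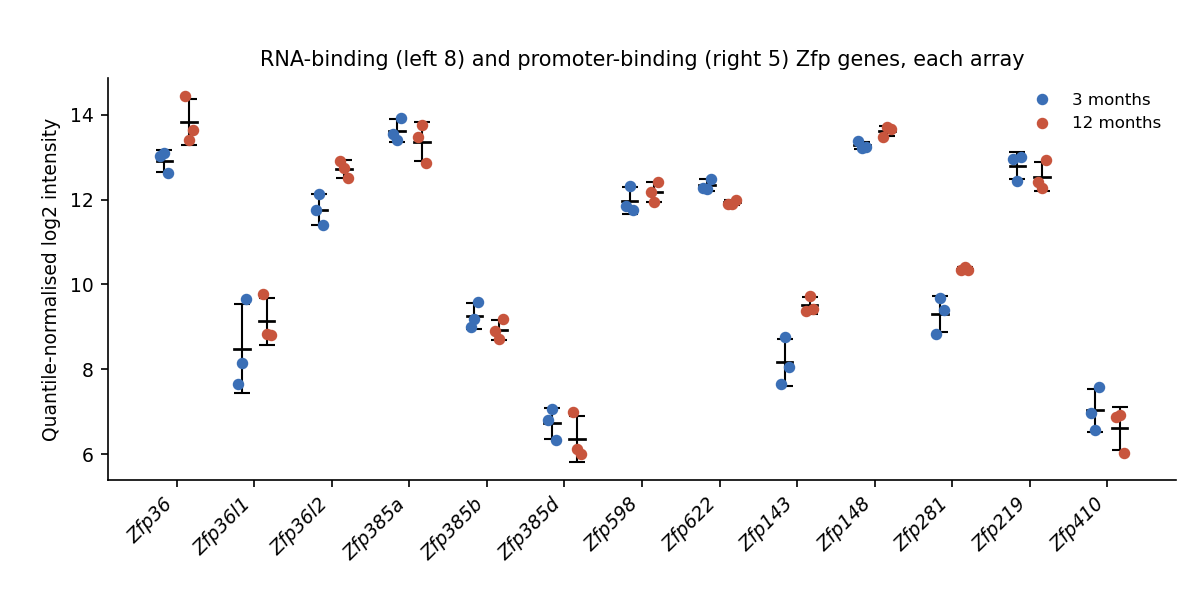
Quantile-normalised log2 intensity (vertical axis) of the 8 tested genes for RNA binding, mRNA decay and ribosomes, from Zfp36 to Zfp622, and the 5 tested promoter-binding genes, from Zfp143 to Zfp410. Points are single arrays (blue, 3 months; red, 12 months), lines are means and bars SD (n = 3 per age). The ages stand apart without overlap in Zfp36, Zfp36l2, Zfp622, Zfp143, Zfp148 and Zfp281, as they do in 39.4% of all tested genes. Of the 13 genes, 0 passed the adjusted threshold.

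In the group for imprinting, pluripotency and H3K9 methylation, Zfp644 and Zfp57 were the 2 tested genes of 6 listed. Zfp57, which protects the methylated copy of imprinted loci, was at 7.12, 7.24 and 7.64 at 12 months and at 6.37, 6.86 and 7.06 at 3 months. The ages did not overlap, but the difference of 0.57 ± 0.29 (SE, n = 3 per age) did not pass (limma, adjusted p = 0.212).

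Of the developmental factors, 8 were tested and 0 were called. Zfp503 and Zfp703, paralogues that act as corepressors in development, stood at opposite ends of the group. Zfp503 was at 9.60, 9.59 and 9.17 at 12 months and at 7.998, 8.95 and 8.28 at 3 months, a difference of 1.05 ± 0.32 (SE, n = 3 per age; limma adjusted p = 0.0822). Zfp703 was at 10.98, 10.39 and 10.63 at 12 months and at 11.60, 11.97 and 11.41 at 3 months, a difference of −0.99 ± 0.27 (SE, n = 3 per age; limma adjusted p = 0.0682). Neither gene overlapped between the ages. Zfp521, a regulator of neural and blood cell differentiation, differed by −0.67 ± 0.32 and Zfp652 by 0.74 ± 0.30 (SE, n = 3 per age), again without overlap and without passing. Zfp260, Zfp354a, Zfp354c and Zfp467, a factor in the choice between adipocytes and osteoblasts, lay between −0.57 and 0.18.

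Of the 5 tested genes for mitosis and genome maintenance, Zfp207 was the 1 called, beside 7.86% of all tested genes. Zfp830, required for cell cycle progression in early embryos, differed by 0.50 ± 0.25 without overlap (SE, n = 3 per age; limma adjusted p = 0.207). Zfp668, Zfp365 and the SUMO ligase gene Zfp451 differed by 0.31, −0.11 and −0.32, with overlapping ages. The widest spread at 3 months was that of Zfp367, at 5.47, 6.66 and 8.18, and the widest at 12 months that of Zfp142, at 5.78, 4.67 and 7.05. Neither passed, with limma adjusted p of 0.219 for Zfp367 and 0.125 for Zfp142.

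Zinc finger genes often lie side by side in clusters. In the RefSeq gene order, 46 tested members fell into 15 runs in which each was at most 3 genes from the one before. Of these runs, 8 held differences of a single sign and 7 held both signs. Zfp52, Zfp53 and Zfp54 lie together on chromosome 1 and differed by 1.33, 0.42 and 0.22. On chromosome 10, Zfp2 (1.92) lies beside Zfp879 (−0.43) and Zfp354c (−0.57). On chromosome 8, Zfp26 (2.57) adjoins Zfp426 (0.01), with Zfp266 (1.05) and Zfp846 (0.03) next in line. The longest run, 7 genes on chromosome 4 from Zfp786 to Zfp467, ranged from −0.43 to 1.12 with 0 called. The 3 called members in runs lay in 3 different runs, and 1 call was made in each. Close relatives in such clusters can share sequence, and cross-hybridisation between them was not tested.

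Other zinc finger families were set beside the Zfp genes by their symbols. The 25 tested Zbtb genes, which join zinc fingers to a BTB domain, had a median difference of −0.26 with 1 called, higher (4%, against 7.86% of all tested genes). The 22 Klf and Sp genes had a median of 0.53 with 3 called, 2 higher and 1 lower (13.6%). The 6 Zscan and Zkscan genes had a median of 0.03 with 0 called, and 3 of the 6 were above 0. The 2 Znf genes, at 0.12 and 0.24, had 0 calls. These medians were not tested against one another.

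The machinery through which KRAB zinc finger proteins and partners of G9a act was described from a list of 43 genes, of which 25 were tested. The median difference was 0.06, with 13 genes above 0, and 1 gene was called (4%, against the background of 7.86%). The called gene was Pphln1, which encodes periphilin, a part of the HUSH silencing complex. It was at 10.37, 10.998 and 10.06 at 12 months and at 11.89, 11.55 and 12.14 at 3 months, a fall of −1.38 ± 0.32 (SE, n = 3 per age; limma adjusted p = 0.0482). No gene of the list was called in 5 of 6 omissions of 1 array, with the methods' t-test or with a block by replicate number. Mphosph8, another HUSH subunit, differed by 0.68 ± 0.24 (SE, n = 3 per age; limma adjusted p = 0.109). The KRAB corepressor Trim28 differed by 0.16 ± 0.24, and Ehmt2, which encodes G9a, by −0.49 ± 0.26 (SE, n = 3 per age), with 12-month values of 12.82, 12.55 and 13.17 all below the 3-month values of 13.51, 13.18 and 13.31. The limma adjusted p was 0.671 for Trim28 and 0.233 for Ehmt2. The H3K9 methyltransferase genes Suv39h1 and Suv39h2 differed by 0.19 and −1.51, and neither passed. Ehmt1, Wiz and Setdb1 were not among the tested genes.

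Profiles of the 139 members across arrays were more alike within an age than between ages. Pearson's r across genes was 0.963 to 0.982 between arrays of 1 age and 0.900 to 0.941 between arrays of different age, as a description, since genes are not independent replicates. The tissue label was checked against islet hormone and granule genes, of which 10 of 10 were tested, with a summed log2 level of 20.9 to 21.1 at 3 months and 21.2 to 21.3 at 12 months and 0 called. The acinar list reached 20.7 to 21.2 at 3 months and 20.6 to 21.3 at 12 months, with 8 of 9 genes tested and 0 called. Genes of stellate and mesenchymal cells, 5 of 7 tested and 1 called, summed to 13.2 to 14.1 at 3 months and 14.6 to 15.99 at 12 months. Nerve and Schwann cell genes, 8 of 9 tested and 2 called, summed to 13.02 to 13.6 and 11.8 to 12.3. Endothelial genes, 5 of 6 tested and 0 called, summed to 15.8 to 16.2 and 14.9 to 15.7. Lists for duct, immune and red blood cells had 0 calls. The sums of the islet, stellate, nerve and endothelial lists did not overlap between the ages, and those of the other lists did. Of all tested genes, 7.86% were called. The part of these cells in the Zfp differences was not tested, and in whole islets fewer cells of a type and less RNA per cell cannot be told apart.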

How the data were processed

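Pancreatic islet RNA on 6 arrays was analysed, 3 for each age. Per the file headers, the authors quantified spots with Agilent Feature Extraction 11.0.1.1 on an rn4-based design, and the deposited intensity is background-subtracted. The deposited series table holds the log2 values of the authors, normalised between arrays, and was used as an alternative. Here the log2 intensity was averaged over unmarked spots of a probe, quantile-normalised, and kept where well above background on at least 3 of 6 arrays (17944 probes, 17941 with a test). Symbols came from RefSeq for 14274 of 15321 messenger RNA probes; a gene kept its brightest probe. Ages were compared with limma 3.58.1 (R 4.3.3; lmFit, eBayes), two-sided, with Benjamini-Hochberg adjustment over all probes, a procedure tested on simulated data. Group labels gave the ages; 1 of the 12-month arrays carries no number in the labels and is called replicate 3. Precision is limited by 3 arrays per age.

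The members and lists were chosen with earlier results of these data known. Named genes were the called members (at most 20 higher and 15 lower by difference), the 5 brightest, the tested genes of the role lists, the member with the widest spread in each age and Zfp644; others are named as neighbours, for the edge of the filter, for several probes or after their values were seen. Cell type markers were for islet endocrine, acinar, duct, endothelial, stellate and mesenchymal, immune, nerve and Schwann, and red blood cells. Alternatives were another scaling, normexp with an offset of 50, the log2 table, other filters, variances and thresholds, the methods' t-test, blocks by replicate number, subsets of arrays and the mean over probes. The planned description of protein features was not run.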

Additional observations from a re-analysis of the deposited data

How the results depend on the processing

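Against 8 Zfp genes called in the reported fit, the count was 16 with normexp (14 higher, 2 lower; all genes 11.04%), 13 with an intensity trend and robust variances (11 higher, 2 lower; all genes 11.6%), 5 with the methods' t-test after Benjamini-Hochberg (all genes 2.37%) and 24 at an adjusted p under 0.1 (19 higher, 5 lower; all genes 20.3%). It was 0 with only the 4 arrays whose array names in the descriptions end alike (12-month replicates 1 and 2, 3-month replicates 2 and 3; all genes 0%). With a replicate block of the 2 numbered pairs it was 0 (all genes 0%), and with a block of 3 pairs 2 (all genes 0.41%). Leaving out 1 array gave 2 to 9 calls, Zfp644 and Zfp800 included (all genes 1.08% to 10.2%). Past the cut-offs of the study with limma's p, 20 (all genes 19.5%) became 12 with normexp (all genes 11.2%) and 15 to 27 with 1 array left out. The median difference of 0.09 was −0.017 with the 75th percentile shift and 0.02 to 0.13 with 1 array left out. The pathway list went from 1 called to 2 with normexp, 2 with the trend and robust variances, 0 with the t-test, with either replicate block and with 4 arrays, and 0 to 1 with 1 array left out, being 0 in 5 of 6 omissions. Arrays of the 2 numbered pairs did not vary together, as their deviations from the age means correlated at −0.01 and −0.31. The pair called replicate 3 gave −0.26. It is no pair by the labels, since its 12-month array carries no number, and the block of 3 pairs rests on it too. Why the counts moved was not tested. The blocks and omissions also had fewer arrays or residual degrees of freedom, and the part of this was not tested either.

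Of 38 named genes, 30 kept their direction in all alternatives. The sign turned for Zfp386 with normexp (0.00033), the block of 2 pairs (0.16), 4 arrays (0.0091) and 1 array left out (−0.090 to 0.087), and in the block of 2 pairs for Zfp385a (0.14), Zfp354a (0.039), Zfp365 (0.026), Zfp410 (0.13) and Zfp598 (−0.025). It also turned for Zfp354a with 1 array left out (−0.30 to 0.023), and with the 75th percentile shift for Zfp260 (−0.017) and Zfp668 (−0.10). None of these 8 genes was called in the reported fit.

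With 3 arrays for each age, and a background signal that differed between the ages, small differences and those of dim probes were the least certain. Blocks by scan could not be fitted because each scan holds 1 age.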
